A study of Mus musculus with 3 samples.

Results

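The genes Otor, Enpep, Npnt and Aoc3 were followed here in MC3T3-E1 cells, 4 of the 15287 genes in the expression table. They were chosen by their large difference between the library of cells given Ti particles and the library of untreated cells, so that difference is described below and not tested. All 4 of 4 passed the filter on low values, which kept the 11137 genes that reached 1 FPKM in any library (FPKM, a fragment count divided by transcript length and library size). MC3T3-E1 is a preosteoblast line from mouse calvaria, here labelled wild type. The study compared untreated cells (CTL), cells given 10 µg/cm² Ti particles for 24 h (Ti), and cells given the same particles together with 5 µM selenomethionine for 24 h (Ti+Se-Met), as a culture model of particle-induced bone loss. Each condition was 1 RNA-seq library of a single cell line, so no value below has an error between cultures, and a library of Se-Met without particles was not analysed here.

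The products of these genes act at the cell surface or outside the cell. Otor encodes otoraplin, a small secreted protein with an SH3-like domain that is known from the cochlea and from developing cartilage, and that belongs to the melanoma inhibitory activity (MIA) family. Enpep encodes aminopeptidase A, a zinc peptidase of the plasma membrane that removes an acidic residue from the N-terminus of peptides and turns angiotensin II into angiotensin III. Npnt encodes nephronectin, a matrix protein with EGF-like repeats and an integrin-binding RGD motif, which is the ligand of integrin α8β1 in kidney development and promotes osteoblast differentiation in culture. Aoc3 encodes a membrane copper amine oxidase, also called vascular adhesion protein 1, which turns primary amines into aldehydes with release of hydrogen peroxide and ammonia, and is known from smooth muscle, adipocytes and endothelium. By the cellular-component terms in the table, 4 of 4 are secreted, matrix, surface or plasma membrane products, which holds for 23.1% of all genes kept and for 46.2% of the 405 genes that were at least 2-fold lower in Ti.

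The promoters of 3 of the 4 genes were found among the RefSeq promoters of assembly GRCm38.p6. The 250 bases before the start of each are shown because these genes had lower levels than in CTL in both libraries with particles. The windows are chr2:143078143-143078392 on the plus strand for Otor, chr3:129332750-129332999 on the minus strand for Enpep, and chr3:132950292-132950541 on the minus strand for the first of 2 listed starts of Npnt. Each is written 5′ to 3′ on the strand of the gene. Capitals mark the TATA box (TATAAA), the CCAAT box and the GC box (GGGCGG) on either strand, and a motif on the opposite strand appears as its reverse complement. None of the capital stretches overlaps another.
Otor: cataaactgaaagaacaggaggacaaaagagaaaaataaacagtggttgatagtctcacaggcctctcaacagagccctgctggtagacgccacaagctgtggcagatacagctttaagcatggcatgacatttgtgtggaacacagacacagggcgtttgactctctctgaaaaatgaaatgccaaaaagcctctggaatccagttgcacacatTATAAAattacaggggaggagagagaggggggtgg
Enpep: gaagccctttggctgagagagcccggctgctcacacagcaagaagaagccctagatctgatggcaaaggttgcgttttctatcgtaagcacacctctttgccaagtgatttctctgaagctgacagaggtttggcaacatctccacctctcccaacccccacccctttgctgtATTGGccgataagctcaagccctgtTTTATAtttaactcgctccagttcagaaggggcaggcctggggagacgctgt
Npnt: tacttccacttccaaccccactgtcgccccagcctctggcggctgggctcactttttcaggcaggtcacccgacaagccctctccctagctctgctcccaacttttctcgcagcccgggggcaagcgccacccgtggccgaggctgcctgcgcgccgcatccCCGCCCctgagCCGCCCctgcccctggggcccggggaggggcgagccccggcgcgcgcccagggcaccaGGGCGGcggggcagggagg
The windows were not alike. TATAAA stood 35 to 30 bases before the start of Otor and, on the opposite strand, 52 to 47 bases before that of Enpep, and was not found before the start of Npnt, against 13.0% of all 27025 promoters over the same bases. GGGCGG was found 3 times before the start of Npnt and not in the other two windows, against 32.9% of promoters, and CCAAT was found before the start of Enpep only, against 34.5%. GC content was 46% for Otor, 52.4% for Enpep and 74% for Npnt, where the median promoter had 52%, and these windows held 2, 6 and 21 CpG dinucleotides. TGTGGT (RUNX), TGANTCA (AP-1), TTCAAAG (TCF/LEF) and GGAATG (TEAD), searched on both strands, were in none of the 3 windows of 300 bases, and they were found in 16.9%, 7.93%, 5.27% and 14.6% of promoters of that length. The E-box CANNTG, found before the start of 66% of promoters, occurred 2 times before the start of Otor, 1 time before that of Enpep and not before that of Npnt. These are matches of letters and carry no measurement of binding.

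The depth of the libraries is not stated. The steps that single fragments leave in the values of short genes put it at 14550000 fragments (CTL), 14950000 (Ti) and 10500000 (Ti+Se-Met), and the low values of this last library are the least precise. Osteoblast markers were present, with 9 of 14 listed genes kept (3 at least 2-fold lower and 2 higher in Ti) and a summed FPKM of 5979 (CTL), 5554.6 (Ti) and 6958.5 (Ti+Se-Met), but single markers differed in opposite directions. Col1a1 was at 1333.19, 354.2 and 481.63, Col1a2 at 2688.49, 998.91 and 1256.6, and Spp1 at 1261.19, 3705.78 and 4659.49. Ibsp was at 0 in CTL and Alpl stood at an FPKM of 1.51, 0.2 and 0.2. Among markers of other cells, those of adipocytes (0 of 10 kept) summed to at most 1.19 FPKM. Those of endothelium (0 of 8 kept) summed to at most 0.52. Chondrocyte markers (2 of 10 kept, 1 of them lower) summed to 36.8, 39.2 and 43.5, macrophage and osteoclast markers (2 of 8 kept, 0 lower) to 44.6, 44.9 and 39.2. The chondrocyte markers kept were Sox9 (24.94, 36.25 and 39.29) and Col11a1 (11.23, 2.53 and 3.42). The macrophage and osteoclast markers kept were Lyz2 (26.72, 14.76 and 12.42) and Ctsk (17.78, 29.68 and 26.22). In each list the 2 kept differed in opposite directions between CTL and Ti. Pericyte and smooth muscle markers (6 of 12 kept, 1 lower) summed to 1016.3, 501.3 and 748.3, with Acta2 at 905.68, 407.87 and 649.96 and Pdgfrb at 89.06, 77.86 and 78.07, while Rgs5 was at no more than 0.05. Genes of proliferation summed to 253.8, 438.5 and 501.5 in the same order, with 4 of 14 at least 2-fold higher in Ti. Beside the counts in these lists, 3.64% of the 11137 genes kept lay at least 2-fold below CTL in Ti, and 3.63% at least 2-fold above. The part of the shifts in marker and proliferation genes in the results below was not tested.

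Otor had the most negative difference between Ti and CTL of all 11137 genes kept. Its FPKM was 27.89 in CTL (95% Poisson interval 24.9 to 31.1), 0.91 in Ti (0.466 to 1.67) and 0.96 in Ti+Se-Met (0.417 to 1.9). The CTL library stood far above both libraries with particles, whose intervals overlapped. The FPKM was 30.6-fold higher in CTL than in Ti (95% interval 16.5 to 60.5) and 29.1-fold higher than in Ti+Se-Met (14.5 to 67.4). An estimated 320 fragments lay behind the value in CTL but only 11 and 8 behind the others. On the scale of log2(FPKM + 1), which understates changes of low genes, Ti minus CTL was -3.92. Otor was at the 73.5th percentile of the genes kept in CTL and at the 2.79th in Ti. Intervals of levels are exact Poisson intervals and those of folds exact conditional binomial intervals, both from estimated fragments. Only counting error enters them, and they set these libraries, not the conditions, side by side.

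Enpep was the most abundant of the 4 genes, at an FPKM of 126.89 in CTL (124.0 to 129.8), 18.88 in Ti (17.8 to 20) and 22.61 in Ti+Se-Met (21.2 to 24.1). No interval overlapped another, and the level in Ti+Se-Met lay close to that in Ti. The fold was 6.72 between CTL and Ti (6.31 to 7.16) and 5.61 between CTL and Ti+Se-Met (5.24 to 6.01). With 7424, 1135 and 955 fragments this is the most precisely measured member. Ti minus CTL was -2.69 on the log2(FPKM + 1) scale, the 6th most negative value of all genes kept, and Enpep was at the 58.8th percentile of levels in Ti.

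Npnt had an FPKM of 18.51 in CTL (17.3 to 19.8), 2.23 in Ti (1.82 to 2.68) and 2.98 in Ti+Se-Met (2.43 to 3.63). The value in CTL was apart from both others, whose intervals overlapped. It was 8.3-fold higher in CTL than in Ti (6.81 to 10.3) and 6.21-fold higher than in Ti+Se-Met (5.04 to 7.7), with 868, 107 and 101 fragments. Ti minus CTL was -2.59 on the log2(FPKM + 1) scale, the 7th most negative. For this gene 6 transcripts are listed, of 1779 to 4619 bases, without the length that its FPKM used, so the number of fragments is less sure than for Otor and Enpep, which have 1 transcript each.

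Aoc3 was the least abundant in CTL and the member with the largest difference between the libraries with particles. Its FPKM was 8.21 in CTL (7.51 to 8.96), 0.73 in Ti (0.532 to 0.969) and 1.79 in Ti+Se-Met (1.43 to 2.24), and no interval overlapped another. CTL was 11.2-fold above Ti (8.35 to 15.6) and 4.59-fold above Ti+Se-Met (3.6 to 5.85), on 506, 46 and 80 fragments. Because its level is low, Ti minus CTL was only -2.41 on the log2(FPKM + 1) scale, which was rank 12 among the genes kept. Of 4617 words of 50 bases in the transcripts of Aoc3, 175 also occur in Aoc2 or the predicted gene Gm11618, so a small share of its fragments could be assigned to either, whereas Otor, Enpep and Npnt shared 0 words with other genes.

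**Figure D1:**
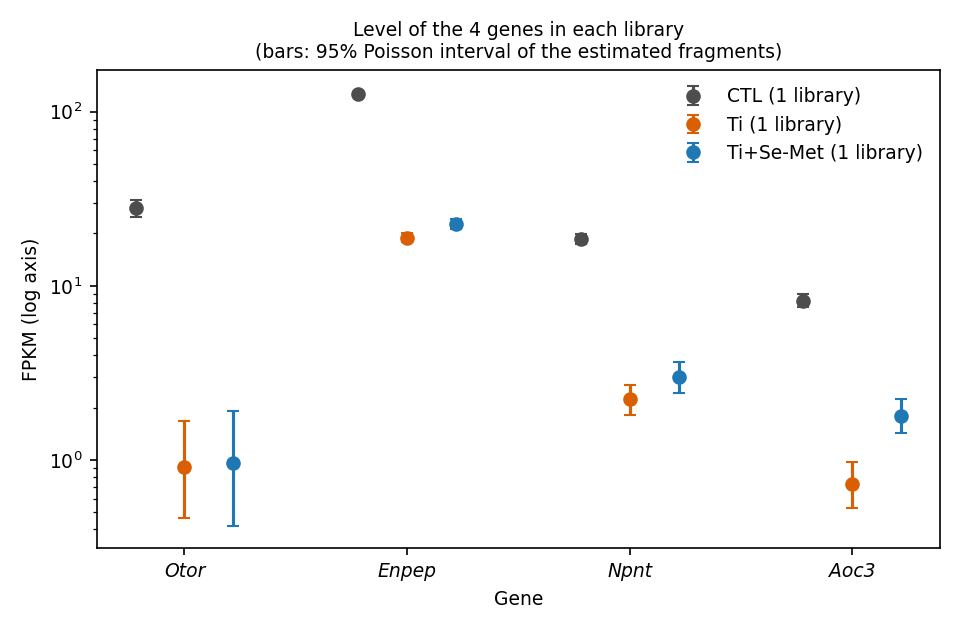
FPKM of Otor, Enpep, Npnt and Aoc3 (log axis) in the CTL, Ti and Ti+Se-Met libraries, 1 point per library, with 95% Poisson intervals of the estimated fragments. CTL lies above both libraries with particles for each gene, and Aoc3 has the widest gap between Ti (0.73) and Ti+Se-Met (1.79).

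Of all genes kept, 3.64% were at least 2-fold lower in Ti than in CTL and 3.63% at least 2-fold higher, and nothing is read from 4 of 4 members being among the lower ones because that difference chose them. The genes next to them in the order of Ti minus CTL place the choice. Where the mean FPKM was 5 or more, Otor was followed by Aspn, the matrix proteoglycan asporin (256.34, 25.37 and 23.81 in CTL, Ti and Ti+Se-Met, -3.29). Enpep and Npnt were neighbours, with Postn, the matricellular protein periostin (2904.07, 419.52 and 446.61, -2.79), just before Enpep and Abi3bp, a matrix protein that binds the cell surface (165.59, 26.85 and 32.09, -2.58), just after Npnt. Aoc3, whose mean of 3.58 is below 5, lay among all genes kept between S100b (69.64, 11.78 and 16.16, -2.47) and Sned1 (25.69, 4.16 and 5.27, -2.37). In this order, on the log2(FPKM + 1) scale, genes that were not chosen thus lie beside the 4. The FPKM fold of CTL over Ti was close for Enpep (6.72) and Postn (6.92). It was larger for Otor (30.6) than for Aspn (10.1, 9.4 to 10.9), and for Npnt (8.3) than for Abi3bp (6.17). It was also larger for Aoc3 (11.2) than for S100b (5.91) and Sned1 (6.18).

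**Figure D2:**
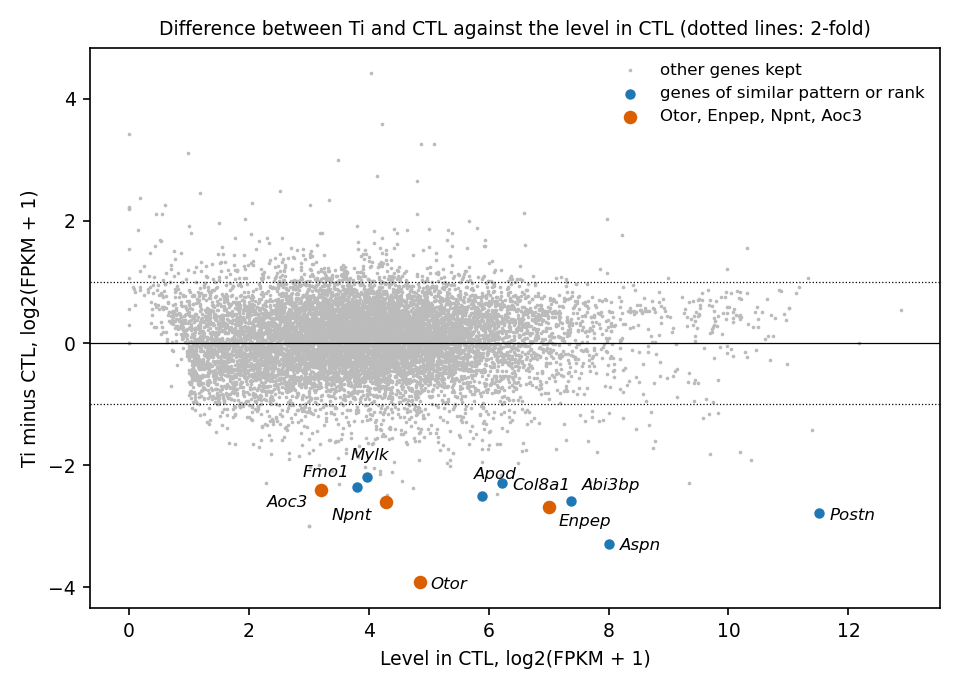
Ti minus CTL in log2(FPKM + 1) against the level in CTL for the 11137 genes kept (grey), with Otor, Enpep, Npnt and Aoc3 in orange and genes of similar pattern or rank in blue, 1 library per condition. Otor is the lowest point at -3.92, and the other three lie between -2.69 and -2.41 at very different levels in CTL.

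The order of the 4 levels changed between libraries. In CTL it was Enpep, Otor, Npnt, Aoc3, with no overlap of intervals. In Ti it was Enpep, Npnt, Otor, Aoc3, and in Ti+Se-Met Enpep, Npnt, Aoc3, Otor, and in both the intervals of Otor and Aoc3 overlapped. Otor thus passed from the second place to the low end together with Aoc3.

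The patterns over the 3 libraries were compared by the Euclidean distance of log2(FPKM + 1) values centred on their mean. On this scale Enpep and Npnt were nearly identical (0.10). Otor was far from each of the others (1.10 to 1.57), and Aoc3 stood between (0.41 from Npnt, 0.51 from Enpep). In a pool of 9174 genes that reached 5 FPKM in any library, the genes most like Enpep were Abi3bp (0.09), Npnt (0.10) and Apod (0.14), the lipid-binding apolipoprotein D with an FPKM of 58.26, 9.47 and 10.1. Those most like Npnt were Abi3bp (0.04), Enpep and Apod (0.15). Nearest to Aoc3 were Col8a1 (0.15), a short-chain collagen with 73.93, 14.25 and 20.24, Fmo1 (0.17), a flavin-containing monooxygenase with 12.95, 1.71 and 2.74, and Mylk (0.17), the myosin light chain kinase with 14.71, 2.44 and 4.47. Nearest to Otor was Aspn (0.47), and then the predicted genes Gm14819 and Gm14632 (both 0.74), which have the same FPKM of 7 in CTL and are listed at 0 in the other two libraries, so their reads may not be separable. Distances over 3 libraries are a description of likeness, not of shared control.

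The library with Se-Met was not used to choose the genes. The CTL library was, and it enters the comparison of Ti+Se-Met with CTL, so a high value in CTL that favoured the choice also enters here. All 4 were at least 2-fold lower in Ti+Se-Met than in CTL, where 3.32% of the genes kept were lower and 2.64% higher. On the log2(FPKM + 1) scale Ti+Se-Met minus CTL was -3.88 for Otor, -2.44 for Enpep, -2.29 for Npnt and -1.72 for Aoc3, which were ranks 1, 9, 14 and 51 of all genes kept. The median of the 4 was -2.37, beside 0.01 for all genes kept and -1.14 for the 405 genes lower in Ti.

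Against Ti, the values with Se-Met were slightly to moderately higher. The FPKM in Ti+Se-Met over that in Ti was 1.05 for Otor (0.362 to 2.83), 1.2 for Enpep (1.1 to 1.31), 1.34 for Npnt (1.01 to 1.78) and 2.45 for Aoc3 (1.7 to 3.64). The interval of Otor held 1 well inside it and was wide enough to hold a 2-fold change either way, so a difference was not detectable at this depth. The interval of Npnt reached from 0.899 to 2.01 when its shortest transcript was used and from 0.999 to 1.8 at the lowest depths, whereas that of Aoc3 stayed above 1 at each depth tried, with no second transcript length found for it. In log2(FPKM + 1) the differences were 0.04, 0.25, 0.30 and 0.69, which undid 0.951%, 9.24%, 11.6% and 28.6% of the distance between Ti and CTL. None of the 4 passed 2-fold on that scale (Aoc3 did, at 1.19, with a pseudocount of 0.1 in place of 1), where 0.162% of all genes kept were higher and 0.0629% lower. The median of the 4 was 0.27, beside -0.06 for all genes kept and 0.14 for the 405 genes lower in Ti. The Ti library chose these genes and also enters this comparison, so the choice and the addition of Se-Met cannot be told apart here.

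**Figure D3:**
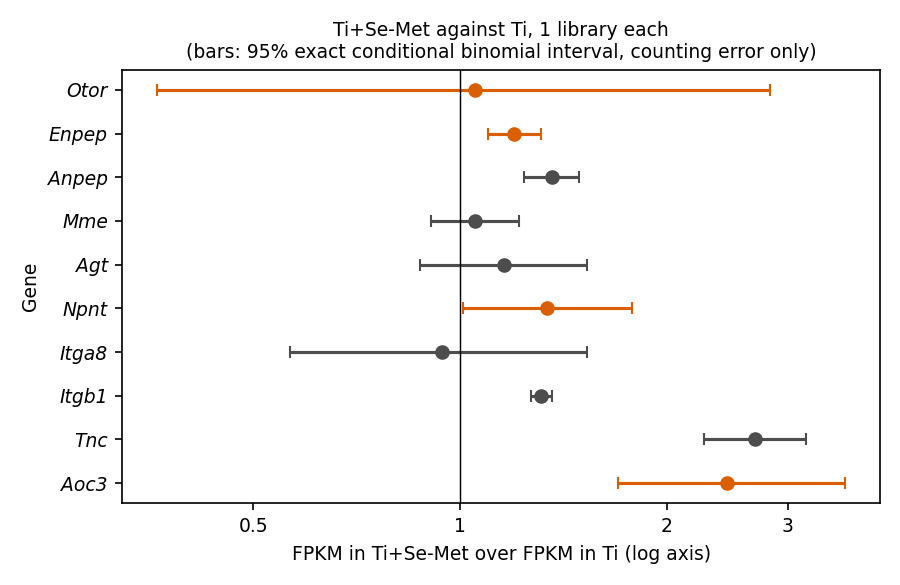
FPKM in Ti+Se-Met over FPKM in Ti (log axis, 1 library each) for the 4 members (orange) and for genes of their pathways (grey), with 95% exact conditional binomial intervals. Aoc3 (2.45) and Tnc (2.69) lie farthest to the right, and the intervals of Otor, Mme, Agt and Itga8 include 1.

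The relatives of Otor in the MIA family differed far less between the libraries. Mia2 and Mia3, large proteins of endoplasmic reticulum exit sites that help to load collagen and other bulky cargo, were the other members of the family kept. Mia2 had an FPKM of 19.9, 18.4 and 21.26 in the order CTL, Ti, Ti+Se-Met, a Ti over CTL fold of 0.925 (0.835 to 1.03). Mia3 had 46.42, 34.96 and 40.28, a fold of 0.753 (0.703 to 0.807). Mia itself, the closest relative, is not listed in the table, so 1 of 3 kept genes of the family was past 2-fold, the member chosen for it. Without Otor it was 0 of 2, beside 3.64% of all genes kept lower and 3.63% higher.

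Enpep was not the only peptidase of angiotensin metabolism with a lower level in Ti than in CTL. Of the 9 M1 aminopeptidases kept, which share the zinc-binding fold of Enpep, 2 were at least 2-fold lower in Ti and 0 higher. The median of the 9 was -0.02. Without Enpep, which was chosen for its difference, 1 of 8 was lower, beside 3.64% of all genes kept. That gene was Anpep, aminopeptidase N, which takes angiotensin III to angiotensin IV, at an FPKM of 46.12, 19.43 and 26.37 (Ti over CTL 0.421, 0.39 to 0.455). Erap1, which trims peptides in the endoplasmic reticulum, was at 13.15, 9.25 and 9.68, a fold of 0.703. Lnpep, also bound by angiotensin IV, was at 37.26, 20.09 and 23.18 and passed 2-fold only when values were rescaled to the same sum. The others had folds between 0.984 and 1.42, and the direction of Aopep among them turned under every scaling tried.

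In the renin-angiotensin list 8 of 16 genes were kept, and 4 were at least 2-fold lower in Ti, with 0 higher, or 3 of 7 without Enpep, beside 3.64% of all genes kept. Besides Enpep and Anpep these were Agt and Mme. Agt, the precursor angiotensinogen, was at 12.51, 4.56 and 5.29, with a Ti over CTL fold of 0.365 (0.293 to 0.452). Mme, the peptidase neprilysin, was at 22.22, 7.69 and 8.09, with a fold of 0.346 (0.308 to 0.387). Anpep did not reach 2-fold in Ti+Se-Met against CTL (-0.78). The table's own KEGG set of this system, looked up after the values were seen, is less one-sided, with 4 of 11 kept genes lower, 0 higher and a median of -0.08. Without Enpep, 3 of 10 genes of the KEGG set were lower and 0 higher, with a median of 0.00, beside 3.64% and 3.63% of all genes kept. The KEGG peptidases Thop1 (17.7, 34.3 and 32.29), Ctsa (116.18, 193.32 and 165.88) and Prep (12.82, 20.71 and 19.95) had higher values in Ti, under 2-fold. The list's median was -0.64 for Ti minus CTL and -0.42 for Ti+Se-Met minus CTL, but -0.08 and -0.06 without Enpep. Ctsd, a lysosomal protease that can act on angiotensinogen, differed the other way (459.29, 817.16 and 757.85). Ren1, Ace, Agtr1a and Agtr1b were not analysed here, and the receptor gene Agtr2 was at no more than 0.02.

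The receptor of nephronectin had a low level beside its ligand. Itga8, the α8 chain, was at an FPKM of 3.58 in untreated cells, 0.52 with particles and 0.49 with Se-Met added, a Ti over CTL fold of 0.145 (0.104 to 0.2). Its partner Itgb1, the β1 chain of many integrins, was far more abundant at 197.35, 117.93 and 154.59, a fold of 0.598 (0.579 to 0.616). Egfl6, the closest relative of nephronectin, was at no more than 0.03. The list of nephronectin, its integrins, their other ligands and its target had 11 genes kept. Of these, 3 (Npnt included) were at least 2-fold lower in Ti and 2 higher. Without Npnt, 2 of 10 were lower and 2 higher, beside 3.64% and 3.63% of all genes kept. Itgav and Vtn joined the lower ones when values were rescaled to the same sum, where 864 of the 11137 genes kept were lower. Besides Npnt and Itga8, the lower gene as deposited was Tnc, the matrix protein tenascin-C, at 10.21, 2.05 and 5.52. It was the only gene of the list past 2-fold with Se-Met added to particles on the log2(FPKM + 1) scale (1.10, an FPKM fold of 2.69, 2.27 to 3.19). The genes with higher values were Spp1, the matrix protein osteopontin (1261.19, 3705.78 and 4659.49), and Gdnf, the kidney growth factor that lies downstream of nephronectin and α8β1 (0.63, 2.93 and 3.1). Ligands with an RGD motif thus differed in both directions, and Fn1, fibronectin, stood at 1400.47, 1296.64 and 1755.64. Vtn, vitronectin, was at 1.6, 0.38 and 0.12, and was past 2-fold in Ti+Se-Met against CTL (-1.22).

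Aoc3 was the only amine oxidase kept that differed 2-fold between Ti and CTL. Of 10 listed genes 6 were kept, of which 1 was at least 2-fold lower and 0 higher, with a median of 0.04. Without Aoc3, which was chosen for its difference, 0 of 5 were lower and 0 higher, with a median of 0.18. Of all genes kept, 3.64% were lower and 3.63% higher. Its paralogs were barely present: Aoc1, the diamine oxidase, was at no more than 0.04, and Aoc2, its neighbour on chromosome 11, was at 0.78, 0.94 and 0.33 (Ti over CTL 1.21, 0.694 to 2.06). Lox, the lysyl oxidase that cross-links collagen and elastin, was at 88.33, 117.86 and 132.25, a fold of 1.33 (1.29 to 1.38), the opposite direction from Aoc3. Among the others, Loxl4 was at 14.91, 9.92 and 12.57, and the small difference of Maoa changed sign after rescaling to the same sum.

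**Figure D4:**
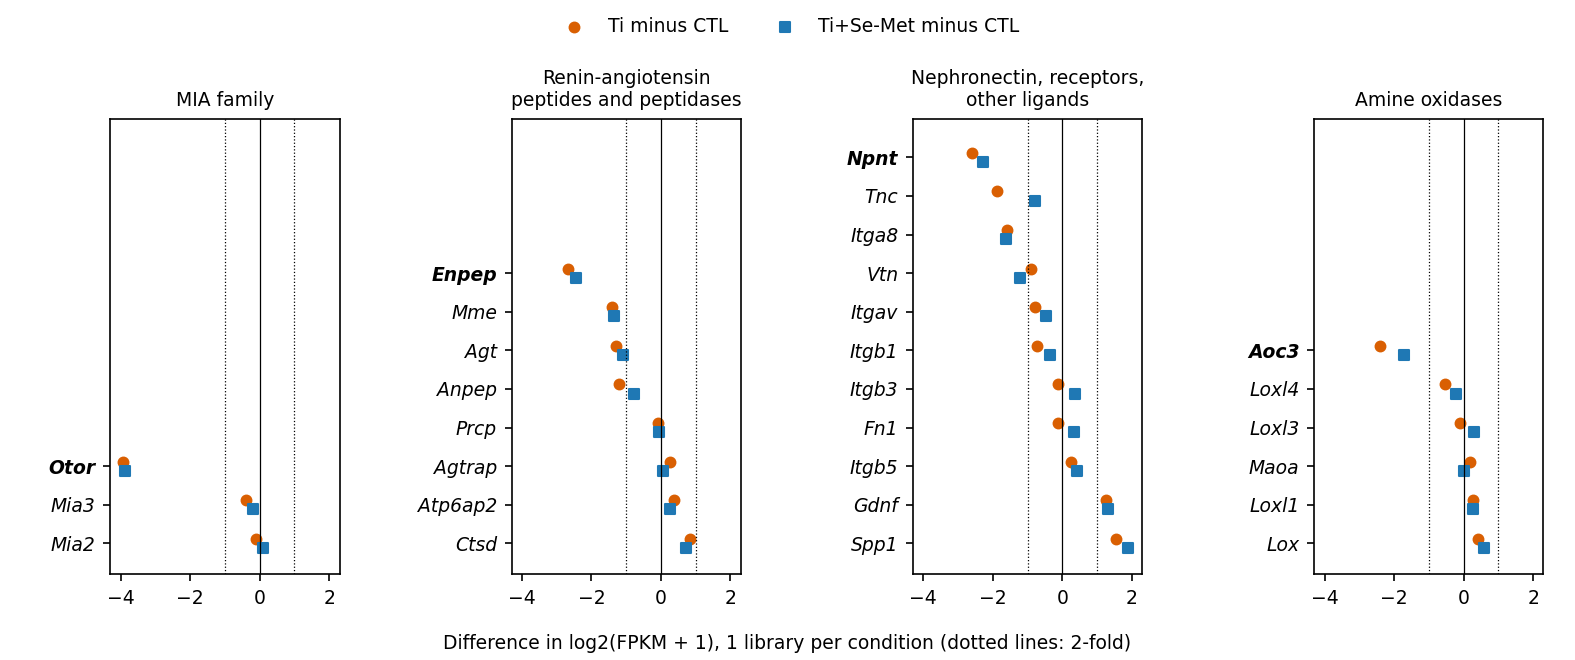
Ti minus CTL (orange circles) and Ti+Se-Met minus CTL (blue squares) in log2(FPKM + 1), 1 library per condition, for the genes kept in the lists of the 4 members (member names in bold). In Ti, Mme, Agt and Anpep are past 2-fold lower beside Enpep and Itga8 and Tnc beside Npnt, while no relative of Otor or Aoc3 passes 2-fold in either direction.

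The genes beside each member on its chromosome were added after the members' values were known and were taken by position alone, the 2 nearest protein-coding genes on each side. Of these 16 genes 11 were kept, 2 were at least 2-fold lower in Ti and 0 higher, beside 3.64% and 3.63% of all genes kept, and 2 of 11 is too few to read a share from. Enpep and Npnt both lie on chromosome 3, with 23 protein-coding genes between them in the RefSeq order. Beside Enpep, Elovl6, a fatty acid elongase, was at 62.7, 18.22 and 20.17 in CTL, Ti and Ti+Se-Met (-1.73). Beside Npnt the 4 nearest genes were all under 2-fold, with Aimp1 at 58.31, 88.49 and 77.54 and Gstcd at 7.32, 7.12 and 6. Near Otor on chromosome 2, Kif16b was at 27.62, 12.08 and 12.94 (-1.13) and Snrpb2 at 46.39, 36.98 and 35.85. Near Aoc3, Psme3 was at 34.89, 56.62 and 45.98, and Aarsd1 at 21.91, 31.68 and 35.91. No member shares exonic bases with another annotated gene in GENCODE M21.

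The values of a library depend on how libraries are scaled to each other. As deposited, the median gene differed by 0.08 between Ti and CTL in log2(FPKM + 1), and 405 genes were 2-fold lower against 404 higher. Rescaled to the same sum, the median was -0.14 and the split 864 against 233, and with an upper-quartile scaling -0.01 and 492 against 266. The common sum was larger than the deposited sums (448285.42 for CTL and 526016.90 for Ti). A pseudocount of 1 thus weighed less after that rescaling, so its split does not reflect the scaling between libraries alone. The 4 members were at least 2-fold lower under each scaling. In bulk RNA, fewer cells that express a gene and less RNA per cell cannot be told apart, and this holds for each level given here.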

How the data were processed

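RNA-seq had been made from 1 library each of CTL, Ti and Ti+Se-Met MC3T3-E1 cells. Per the study's methods, reads with adapters or low quality were removed, the others aligned with HISAT2 and genes counted with HTSeq, and the submitters' processing notes name HISAT2, StringTie, SAMtools and mm9. The values the authors deposited are FPKM per gene, rounded to 2 decimals, and which program made them is not given in the sources used here. Each column was matched to a sample by its name, and 0 were left over. The filter kept 11137 of 15287 genes, those that reached 1 FPKM in any library. Differences in log2(FPKM + 1) were computed and counted at 2-fold or more, with Python 3.11.15, numpy 2.4.6, pandas 2.3.3, scipy 1.17.1 and matplotlib 3.10.9. Count models were not applied to FPKM, and 1 library per condition allows no test across replicates.

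To estimate depth, 453 single-transcript genes between 350 and 1000 bases long were searched for the step that 1 fragment makes. Lengths came from GENCODE M21 (GRCm38) by RefSeq accession for 95.3% of genes, less 160 bases. In CTL, Ti and Ti+Se-Met, 58%, 48.9% and 49.5% of the low values lay on a step, where spacing alone gives 18%, and depths from 13400000 to 15150000, 12950000 to 16150000 and 10400000 to 11650000 fitted nearly as well. Whole fragments could not be recovered for most genes. The scripts were tested on simulated data. The members and the gene lists were chosen with earlier results of these data known. Named were the 4 members, genes of their families past 2-fold or closest to them, the 3 most similar genes of each, and their neighbours in the order of differences. The table's build could not be matched to the promoter table, so coordinates are those of the latter.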

Additional observations from a re-analysis of the deposited data

How the results depend on the processing

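The number of members at least 2-fold lower in Ti than in CTL stayed 4 of 4 under every alternative run for it. Ti+Se-Met lay on the CTL side of Ti for all 4 under each alternative too, which the choice of genes lower in Ti than in CTL favours. For Otor the amount was not detectable at this depth. None of 60 member values under alternatives changed direction. Ti minus CTL ranged from -4.79 to -2.48 for Otor, -2.94 to -2.47 for Enpep, -3.01 to -1.70 for Npnt and -3.32 to -1.21 for Aoc3. The pseudocount moved Otor, Npnt and Aoc3 most, by construction. The lowest values of Enpep and Npnt came from rescaling to the same sum, which also lessens the weight of the pseudocount. Aoc3 was under 2-fold in Ti+Se-Met against CTL (-0.96) with a pseudocount of 5, and its difference between Ti+Se-Met and Ti ranged from 0.24 with 5 to 1.19, past 2-fold, with 0.1. The background counts moved more. Genes lower in Ti than in CTL numbered 405 as reported, 666 with a pseudocount of 0.1, 173 with 5, 864 rescaled to the same sum, 1259 at 1.5-fold and 31 at 4-fold. Genes lower in Ti+Se-Met than in CTL numbered 370, and 686, 122, 819, 1308 and 24 in the same order, with 222 at a mean FPKM of at least 5. Genes higher in Ti+Se-Met than in Ti numbered 18, and 38 with a pseudocount of 0.1, 2 with 5, 8 at a mean FPKM of at least 5, 94 at 1.5-fold and 0 at 4-fold. No paired analysis was possible because replicates are lacking, and for the same reason no library could be left out. Counting error is largest for Otor with particles, at 11 and 8 fragments.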

Other observations

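In the table's own annotation, looked up after the members' values were seen, Otor carries the term cartilage condensation. Of its 14 genes 10 were kept, of which 4 had at least 2-fold less in Ti and 0 had more than in CTL (3 of 9 without Otor, beside 3.64% of all genes kept), and 5 had less when values were rescaled to the same sum, which adds Sox5. Besides Otor these were Thra, a thyroid hormone receptor (75.39, 34.05 and 33.7 in CTL, Ti and Ti+Se-Met), Col11a1, a fibrillar collagen (11.23, 2.53 and 3.42), and Tgfb2 (10.75, 4.28 and 3.93). Sox9, the regulator of chondrocyte fate, was at 24.94, 36.25 and 39.29, and Ccn2, a matricellular protein, was at 0.83, 1.9 and 3.31. Npnt carries the term positive regulation of osteoblast differentiation. Of its 61 genes 49 were kept, of which 7 were at least 2-fold lower in Ti, Npnt among them, and 3 higher. Without Npnt, 6 of 48 were lower and 3 higher, beside 3.64% and 3.63% of all genes kept. The median of the 49 was -0.14, beside 0.08 for all genes kept. The receptor gene Mas1, bound by angiotensin-(1-7), did not pass the filter but was at 0.75, 0.1 and 0.09.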
